A study of Mus musculus with 8 samples.

Results

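Forelimb and hindlimb of the mouse fetus were compared over all 739 distinct genes, of 739 in hand, that the authors' tables list as higher or lower in a Sox9 mutant. The genes were chosen for their difference between genotypes and not for limb. There were 8 RNA-seq libraries from C57BL/6 limb buds at E13.5, 4 of forelimb and 4 of hindlimb, and they form 4 forelimb and hindlimb pairs of the same genotype and sorted fraction. The Y440X genotype is Sox9+/Y440X-IRES-EGFP, in which 1 Sox9 allele carries the Y440X mutation and a green fluorescent reporter. WT is Sox9+/IRES-EGFP, so the WT fetuses also carry the reporter on 1 allele beside an unmarked one. Dissociated buds were sorted into GFP-positive cells, in which the tagged Sox9 allele is active, and GFP-negative cells. The pairs are thus Y440X GFP-positive, WT GFP-positive, Y440X GFP-negative and WT GFP-negative.

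Each library holds pooled buds, 4 to 6 pairs for each genotype, and both fractions of a limb and genotype come from dissociated buds of the same collection. The 4 pairs therefore hold 2 pools per limb, 1 for each genotype, and p-values measure only the spread between these samples. The study's own design treats the limbs as replicates of each other. A difference between the limbs cannot be told apart from a difference in how the 2 limbs' buds were collected and processed. In bulk samples fewer cells of a type and less RNA per cell cannot be told apart either.

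Forelimb and hindlimb buds use the same patterning signals but differ in identity genes: Tbx5 marks the forelimb, and Tbx4 and Pitx1 mark the hindlimb. The forelimb bud appears first, and its skeleton is generally somewhat ahead of that of the hindlimb at a given age. Cartilage forms when mesenchymal cells condense under the control of the transcription factor Sox9 and lay down a matrix of type II collagen and aggrecan. None of the 16 limb identity genes looked for, Tbx5, Tbx4 and Pitx1 included, is among the listed genes, so the limb labels could not be checked against them. Meis1, a homeobox gene of the proximal limb, was the 1 listed gene of 37 patterning and Hox genes.

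Effective library sizes lay between 38639488 and 50864636 reads, so 1 CPM (counts per 1000000 reads) rests on 38.6 to 50.9 reads. The listed genes took a larger share of the forelimb library in each pair. It was 2.97% against 2.52% in hindlimb for Y440X GFP-positive cells, and 8.33% against 6.04% for WT GFP-positive cells. It was 0.839% against 0.811% for Y440X GFP-negative cells, and 1.40% against 1.27% for WT GFP-negative cells. The median gene lay 0.12 above 0 on the log2 scale of forelimb over hindlimb, which fell to 0.02 with scaling by trimmed means (TMM) over the listed genes and to 0.01 with each pair centred on its median.

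The promoters of 3 cartilage genes and of 1 epithelial gene that passed the limb test are printed to show the sequence next to their start sites. They were picked after the values were seen. The windows are RefSeq's, of 300 bases on build GRCm38.p6, 5′ to 3′ on the gene's own strand, and Lect1 stands there under its newer symbol Cnmd. Capitals mark the SOX core motif, ACAATG or ACAAAG, searched on both strands. It was found once, on the reverse strand of the Col17a1 window, and in 28.6% of all 32851 RefSeq windows.
Acan chr7:79052976-79053275 (plus strand): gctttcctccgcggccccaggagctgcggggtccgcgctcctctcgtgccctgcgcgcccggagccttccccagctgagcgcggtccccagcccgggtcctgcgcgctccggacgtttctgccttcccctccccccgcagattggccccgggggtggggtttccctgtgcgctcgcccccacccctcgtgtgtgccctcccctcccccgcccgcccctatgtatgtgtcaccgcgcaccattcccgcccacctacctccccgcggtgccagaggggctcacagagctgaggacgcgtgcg
Lect1 chr14:79662134-79662433 (minus strand): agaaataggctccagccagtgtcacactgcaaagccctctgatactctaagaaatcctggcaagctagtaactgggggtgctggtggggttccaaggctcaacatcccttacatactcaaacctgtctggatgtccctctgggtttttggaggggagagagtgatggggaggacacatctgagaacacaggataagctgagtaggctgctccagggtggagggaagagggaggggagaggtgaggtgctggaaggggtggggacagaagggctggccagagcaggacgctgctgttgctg
Matn1 chr4:130944135-130944434 (plus strand): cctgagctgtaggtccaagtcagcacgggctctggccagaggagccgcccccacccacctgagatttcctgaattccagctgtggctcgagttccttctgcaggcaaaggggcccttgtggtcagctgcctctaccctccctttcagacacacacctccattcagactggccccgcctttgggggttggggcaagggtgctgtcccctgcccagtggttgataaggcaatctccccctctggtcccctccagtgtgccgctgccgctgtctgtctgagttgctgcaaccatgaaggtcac
Col17a1 chr19:47691993-47692292 (minus strand): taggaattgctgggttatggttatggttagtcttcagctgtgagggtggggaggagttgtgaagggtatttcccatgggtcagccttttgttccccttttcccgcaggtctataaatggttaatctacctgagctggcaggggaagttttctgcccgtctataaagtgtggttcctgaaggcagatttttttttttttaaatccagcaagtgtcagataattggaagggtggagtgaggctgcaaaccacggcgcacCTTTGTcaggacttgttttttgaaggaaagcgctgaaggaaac
Of 7 genes looked for 5 had a RefSeq window, and Comp and Wnt7b had none. Matn4 also had a window, which held 0 matches and is not printed.

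The first comparison set forelimb against hindlimb over all 8 libraries. Forelimb had more RNA of 6 of 21 listed cartilage matrix genes and of 3 of 27 listed macrophage and leukocyte genes. It had less RNA of the Wnt ligand Wnt7b and, with an adjusted p just under 0.05, of the Wnt ligands Wnt7a and Wnt3. Of the 739 genes 36 passed (4.87%; edgeR quasi-likelihood test with the 4 pairs as a block, adjusted p under 0.05), 30 higher (4.06%) and 6 lower (0.812%) in forelimb. At an unadjusted p under 0.05 there were 164 (22.2%). Forelimb was higher in 4 of 4 pairs for 145 genes (19.6%), and hindlimb for 45 (6.09%). For this, 0.5 counts were added in each library, so pairs with 0 reads in both limbs are ordered too. The split of 30 higher and 6 lower became 19 and 11 when each pair was centred on its median, and 14 and 5 with TMM scaling over the listed genes.

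These calls rest on few libraries. Without the Y440X GFP-positive pair none of the 739 genes passed in edgeR (118 at an unadjusted p under 0.05), and without the WT GFP-negative pair 6 did. Without the pair as a block none passed in edgeR (0 at an unadjusted p under 0.05), a model that leaves the differences between genotypes and fractions in the spread. With genotype and fraction as additive terms none passed in edgeR either (18 at an unadjusted p under 0.05). Of the 36 genes, 32 lay on 1 side in 4 of 4 pairs and 31 averaged at least 1 CPM.

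**Figure D1:**
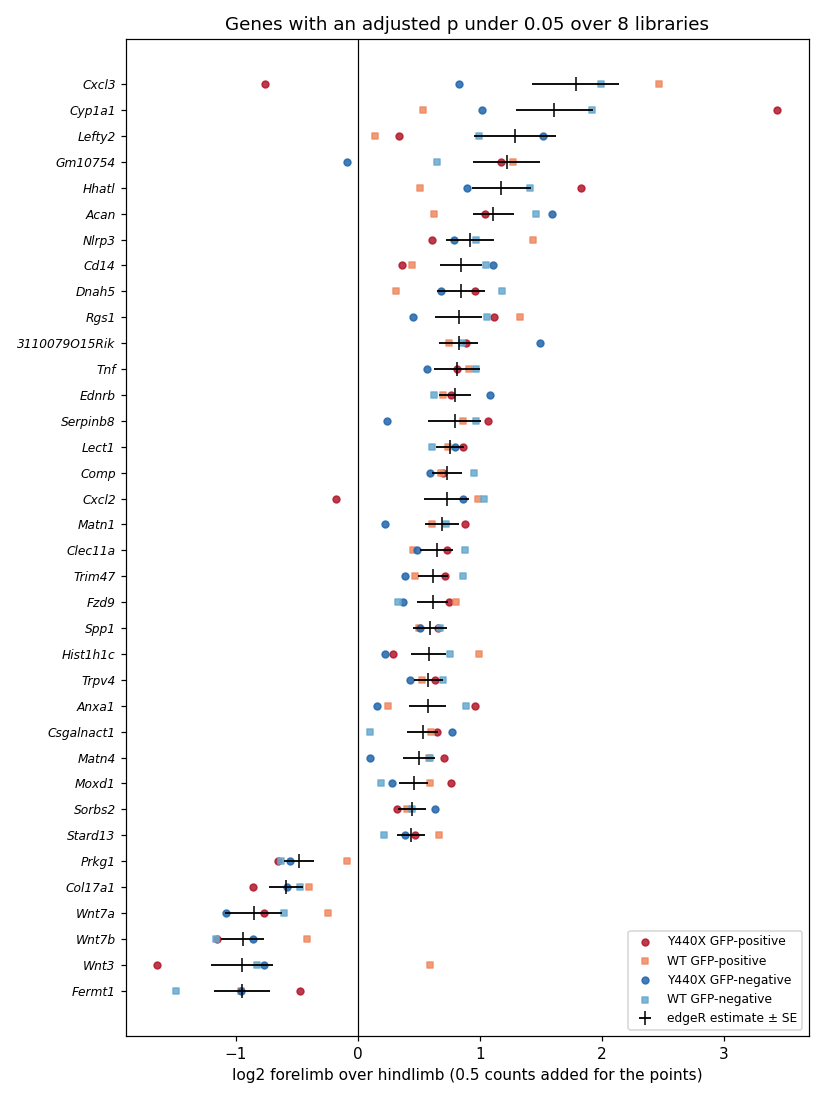
The 36 genes with an adjusted p under 0.05 over 8 libraries, by log2 forelimb over hindlimb: coloured points are the 4 pairs (0.5 counts added) and black bars the edgeR estimate ± SE. The 30 genes above 0 outnumber the 6 below it, and in 4 genes (Cxcl3, Gm10754, Cxcl2 and Wnt3) 1 pair lies on the other side of 0.

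Cartilage matrix genes held the most calls of the lists. Of 33 genes looked for 21 are listed, and 6 of these were higher in forelimb over the 8 libraries and 0 lower, against 4.87% of all genes. The median log2 difference of the 21 was 0.29, beside 0.12 for all 739, and 20 lay above 0 (19 when each pair was centred on its median). The 6 were Acan, Lect1, Comp, Matn1, Matn4 and 3110079O15Rik, of which 5 kept the call when centred and 4 with TMM scaling.

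Acan encodes aggrecan, the large proteoglycan that gives cartilage its resistance to compression, and lies on chromosome 7 (79053226 to 79115099, GRCm38.p6). Y440X GFP-positive cells held 857 CPM of it in forelimb against 415 CPM in hindlimb. WT GFP-positive cells held 3119 CPM of it in forelimb against 2018 CPM in hindlimb. In GFP-negative cells its levels were 2.10 CPM in forelimb against 0.690 CPM in hindlimb of Y440X, and 18.5 CPM in forelimb against 6.71 CPM in hindlimb of WT. Forelimb was the higher library in every pair, while the levels of genotypes and fractions lay far apart, so the limbs overlap unless paired. The log2 difference was 1.11 ± 0.17 (SE; edgeR adjusted p = 0.00552), a 2.16-fold higher level in forelimb. The Acan, Lect1 and Matn1 promoter windows printed above hold no match to the SOX core.

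Lect1 encodes chondromodulin, a cartilage protein that holds back blood vessels, and lies on chromosome 14 (79637682 to 79662194). Its levels were 209 CPM in forelimb against 115 CPM in hindlimb of Y440X GFP-positive cells, and 969 and 580 CPM in WT GFP-positive forelimb and hindlimb. In GFP-negative cells they were 8.16 CPM in forelimb against 4.70 CPM in hindlimb of Y440X, and 15.2 CPM in WT forelimb against 9.96 CPM in WT hindlimb. The 4 pairs were close to each other, with log2 differences of 0.86, 0.74, 0.79 and 0.61 in the order of the pairs given above, and 0.75 ± 0.12 over all (edgeR adjusted p = 0.00552).

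Comp, cartilage oligomeric matrix protein, lies on chromosome 8 (70373548 to 70382066). It stood at 99.6 CPM in forelimb against 61.4 CPM in hindlimb of Y440X GFP-positive cells, and at 466 CPM in WT forelimb against 291 CPM in WT hindlimb. Its log2 differences in the 4 pairs, 0.70, 0.68, 0.59 and 0.95, gave 0.73 ± 0.12 (edgeR adjusted p = 0.00771). Acan and Lect1 kept their calls in 10 of 13 alternatives each. Acan and Lect1 lost them without the block, with genotype and fraction as additive terms and without the Y440X GFP-positive pair. Comp lost its call in these 3 and also without the WT GFP-negative pair.

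**Figure D2:**
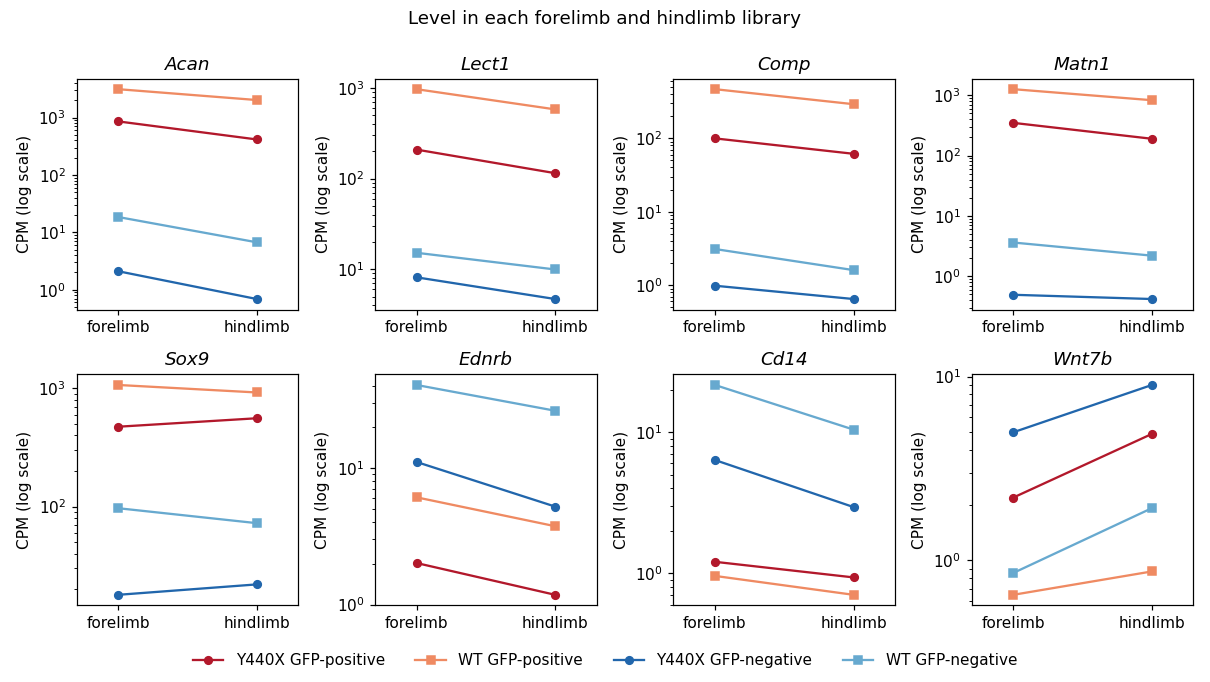
CPM (log scale) of 8 genes in each forelimb library (left) and its hindlimb partner (right), 1 line per pair. Acan, Lect1, Comp, Matn1, Ednrb and Cd14 slope down to the hindlimb in 4 of 4 pairs and Wnt7b slopes up, while Sox9 slopes down in the WT pairs and up in the Y440X pairs.

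The matrilins are adaptor proteins that link collagen fibrils to aggrecan. Matn1, on chromosome 4 (130944385 to 130955476), measured 349 CPM in forelimb against 190 CPM in hindlimb of Y440X GFP-positive cells, and 1264 CPM in WT forelimb against 830 CPM in WT hindlimb (log2 difference over 8 libraries 0.69 ± 0.14, edgeR adjusted p = 0.0139). Matn4 measured 0.50 ± 0.13 and 3110079O15Rik, named Snorc in RefSeq and encoding a small cartilage proteoglycan, 0.83 ± 0.16. In Y440X GFP-negative cells Matn1 was at 0.492 CPM in forelimb against 0.418 CPM in hindlimb and 3110079O15Rik at 1 read and 0 reads, so these 2 calls rest on the other pairs.

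Csgalnact1 and Trpv4 belong to no list here and were named after their values were seen. Csgalnact1, an enzyme of chondroitin sulfate synthesis, measured 0.53 ± 0.12, and Trpv4, a calcium channel of chondrocytes, 0.58 ± 0.12 (edgeR adjusted p = 0.0272 and 0.0139). Fzd9, a Wnt receptor, measured 0.61 ± 0.13 and was at 37.4 CPM in forelimb against 22.3 CPM in hindlimb of Y440X GFP-positive cells, and at 182 CPM in WT forelimb against 104 CPM in WT hindlimb. Spp1, the bone matrix protein osteopontin, measured 0.59 ± 0.14 and did not pass when each pair was centred on its median. It was the 1 gene of 9 listed hypertrophy and bone genes to pass, beside 4.87% of all genes. The median log2 difference of the 9 was 0.02, beside 0.12 for all genes, so the list is not read as higher in forelimb.

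The most abundant cartilage collagens did not pass over the 8 libraries. Col2a1, the main collagen of cartilage, had 7753 CPM in forelimb against 5916 CPM in hindlimb of Y440X GFP-positive cells, and 23691 CPM in WT forelimb against 15968 CPM in WT hindlimb. In GFP-negative cells it had 146 CPM in Y440X forelimb against 164 CPM in Y440X hindlimb, and 250 CPM in WT forelimb against 221 CPM in WT hindlimb. The log2 difference was 0.24 ± 0.17 (edgeR adjusted p = 0.452). Col11a1 and Col9a1 measured 0.17 ± 0.17 and 0.10 ± 0.15 (edgeR adjusted p = 0.618 and 0.762), and both had the higher level in forelimb in both GFP-positive pairs.

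Sox9 itself, on chromosome 11 (112782210 to 112787757), showed no limb difference that passed. It was at 474 CPM in forelimb against 559 CPM in hindlimb of Y440X GFP-positive cells, and at 1069 CPM in WT forelimb against 923 CPM in WT hindlimb. GFP-negative cells held 17.9 CPM of it in Y440X forelimb against 22.0 CPM in Y440X hindlimb, and 96.9 CPM in WT forelimb against 72.4 CPM in WT hindlimb. Forelimb was the lower library in both Y440X pairs and the higher one in both WT pairs, and the log2 difference over all was 0.03 ± 0.14 (edgeR adjusted p = 0.941), with a negative sign under TMM scaling, centring and summed fractions. None of the 10 listed genes of the 25 chondrogenic regulators passed over the 8 libraries, beside 4.87% of all genes. Sox6 (0.15 ± 0.12) and Fgfr3 (-0.04 ± 0.15) were among the 10. A list of 10 genes is too small to set 0 calls apart from that share.

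Of 40 macrophage and leukocyte genes 27 are listed, and 3 of these were higher in forelimb and 0 lower, beside 4.06% higher and 0.812% lower of all genes. The median was 0.21, beside 0.12 for all genes, and 26 of 27 lay above 0, against 17 when each pair was centred on its median and 18 with TMM scaling. The 3 were Cd14, Tnf and Cxcl2, and 2 list members passed when centred and 1 with TMM scaling. The defining markers Mrc1 and Csf1r did not pass, at 0.36 ± 0.14 and 0.29 ± 0.14 (edgeR adjusted p = 0.149 and 0.234). The summed level of the 27 genes in GFP-negative cells was 214 CPM in forelimb against 173 CPM in hindlimb of Y440X, and 837 CPM in WT forelimb against 690 CPM in WT hindlimb. Whether the number of macrophages in the libraries had a part in these calls was not tested.

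Cd14, a co-receptor for bacterial lipopolysaccharide, was at 6.35 CPM in forelimb against 2.95 CPM in hindlimb of Y440X GFP-negative cells, and at 21.6 CPM in WT forelimb against 10.4 CPM in WT hindlimb. Its log2 difference over 8 libraries was 0.84 ± 0.17 (edgeR adjusted p = 0.0139). The cytokine Tnf and the chemokine Cxcl2 measured 0.81 ± 0.19 and 0.73 ± 0.18. Cxcl2 was at 63.3 CPM in forelimb against 30.9 CPM in hindlimb of WT GFP-negative cells, and in Y440X GFP-positive cells hindlimb was the higher library, at 1.32 CPM in forelimb against 1.49 CPM in hindlimb.

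Outside the list, and named after their values were seen or by size of change, stood Nlrp3, the sensor of an inflammasome, at 0.92 ± 0.20, and Rgs1, a regulator of G protein signalling in leukocytes, at 0.83 ± 0.19. Cxcl3, a chemokine related to Cxcl2, measured 1.78 ± 0.35 and had 196 reads in forelimb and 46 reads in hindlimb of WT GFP-negative cells but at most 8 reads in each of the other 6 libraries. Cyp1a1, a cytochrome P450 induced through the aryl hydrocarbon receptor, measured 1.61 ± 0.32, with 294 reads in forelimb and 73 reads in hindlimb of WT GFP-negative cells and at most 20 reads in each of the others. Without the WT GFP-negative pair Cxcl3 measured 0.79 and Cyp1a1 1.05, and neither passed.

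Ednrb, Clec11a and Trim47, also higher in forelimb, are described with the fractions. The remaining 10 higher genes belong to no list here and were named after their values were seen, apart from those the size rule names. They were Lefty2, Gm10754, Hhatl, Dnah5, Serpinb8, Hist1h1c, Anxa1, Moxd1, Sorbs2 and Stard13. Their log2 differences lay between 1.29 ± 0.34 for Lefty2, an antagonist of Nodal signalling, and 0.44 ± 0.11 for Stard13. Lefty2 rests on few reads, with 62 reads in forelimb and 20 reads in hindlimb of Y440X GFP-negative cells and at most 9 reads in each of the others. Without the Y440X GFP-negative pair it measured 0.73 and did not pass. Hist1h1c, a linker histone, had 1568 reads in forelimb and 868 reads in hindlimb of WT GFP-positive cells and measured 0.58 ± 0.14. Forelimb was the higher library in 4 of 4 pairs for 9 of the 10, the exception being Gm10754.

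Lower in forelimb were 6 genes. Wnt7b, a Wnt ligand of the limb's surface ectoderm whose gene lies on chromosome 15 (85535437 to 85581821), was at 2.19 CPM in forelimb against 4.87 CPM in hindlimb of Y440X GFP-positive cells, and at 0.647 CPM in WT forelimb against 0.868 CPM in WT hindlimb. GFP-negative cells held 4.97 CPM of it in forelimb against 9.01 CPM in hindlimb of Y440X, and 0.851 CPM in WT forelimb against 1.92 CPM in WT hindlimb. Hindlimb was the higher library in all 4 pairs, with a log2 difference of -0.94 ± 0.18 (edgeR adjusted p = 0.0139).

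Wnt7a, the Wnt ligand of dorsal ectoderm, and Wnt3, an ectodermal Wnt ligand, measured -0.85 ± 0.23 and -0.95 ± 0.26 (edgeR adjusted p = 0.0468 and 0.0476). Wnt7a kept its call in 6 of 13 alternatives and Wnt3 in 4 of 13, against 8 of 13 for Wnt7b. Wnt3 had more RNA in the forelimb than in the hindlimb library of WT GFP-positive cells, at 0.181 and 0.117 CPM. Of 42 Wnt pathway genes 9 are listed, 1 was higher in forelimb (Fzd9) and 3 were lower, beside 4.06% higher and 0.812% lower of all genes. The median was -0.33, beside 0.12 for all genes. With each pair centred on its median 1 was higher and 4 were lower, and with TMM scaling 0 were higher and 2 lower. The other 5, Wnt6 (-0.63 ± 0.20), Wnt9b, Rspo1, Fzd4 and Lef1, did not pass.

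Col17a1, a collagen of the junction that anchors basal epithelium, on chromosome 19 (47646341 to 47692042), was at 11.3 CPM in forelimb against 16.8 CPM in hindlimb of Y440X GFP-negative cells (log2 difference over 8 libraries -0.59 ± 0.14, edgeR adjusted p = 0.0279). Fermt1, an integrin activator of epithelial cells, measured -0.95 ± 0.23 and Prkg1, a kinase activated by cyclic GMP, -0.48 ± 0.12. Of 40 surface epithelium genes 14 are listed and 1 passed, Wnt7a, beside 4.87% of all genes. Krt14 and Krt5, keratins of basal epithelium, measured -0.42 ± 0.15 and -0.35 ± 0.16 (edgeR adjusted p = 0.112 and 0.225). The summed level of the 14 genes was 68.1 CPM in forelimb against 94.0 CPM in hindlimb of Y440X GFP-positive cells, and 35.6 CPM in WT forelimb against 38.9 CPM in WT hindlimb. In GFP-negative cells the sums were 114 CPM in forelimb against 135 CPM in hindlimb of Y440X, and 54.0 CPM in WT forelimb against 54.7 CPM in WT hindlimb. Whether the amount of epithelium in the libraries had a part in the Wnt calls was not tested.

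**Figure D3:**
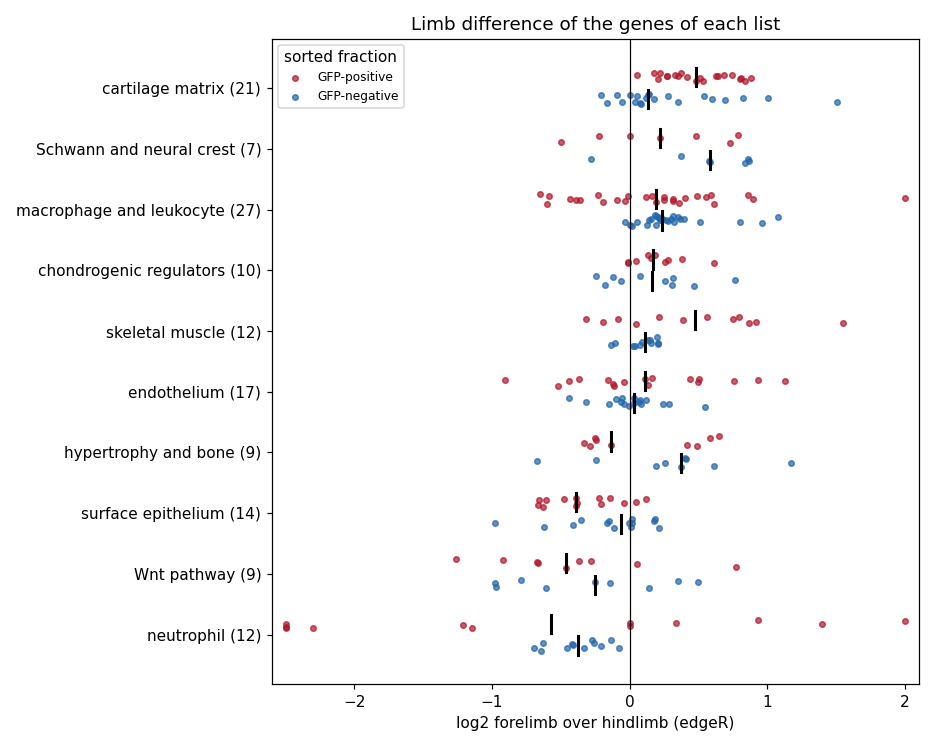
log2 forelimb over hindlimb of each listed gene in GFP-positive (red, above) and GFP-negative (blue, below) cells, for the 10 lists with at least 7 listed genes, whose number stands in brackets. Black bars are medians, 5 points beyond -2.5 or 2.0 are drawn at the edge, and all 21 cartilage matrix genes lie above 0 in GFP-positive cells.

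The second comparison took each sorted fraction alone within the same model. In GFP-positive cells 64 genes passed (8.66%), 49 higher (6.63%) and 15 lower (2.03%) in forelimb, and 19.8% had an unadjusted p under 0.05. In GFP-negative cells 59 passed (7.98%), 49 higher (6.63%) and 10 lower (1.35%), and 21.1% had an unadjusted p under 0.05. Because limbs served as replicates when the authors listed genes, a gene with a large limb difference in a fraction could be listed for that fraction less easily. Among the 436 genes listed for GFP-negative cells alone 20 passed in GFP-positive cells (4.59%), beside 44 of the 303 listed for GFP-positive cells (14.5%). Among the 229 listed for GFP-positive cells alone 14 passed in GFP-negative cells (6.11%), beside 45 of the 510 listed for GFP-negative cells (8.82%). In both fractions the share was thus the higher one among the genes listed for that fraction, and why was not tested. None of the 739 genes passed in either fraction without the Y440X GFP-positive pair or without the WT GFP-positive pair (edgeR; 93 and 98 at an unadjusted p under 0.05 in GFP-positive cells, 148 and 140 in GFP-negative cells). With the 4 GFP-negative libraries fitted alone none passed either (141 at an unadjusted p under 0.05), against 56 with the GFP-positive ones alone.

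Cartilage matrix genes gave 8 of the 49 higher genes in GFP-positive cells, 8 of 21 listed members beside 8.66% of all genes. All 21 lay above 0, with a median log2 difference of 0.48 and a range of 0.06 to 0.89. Besides the 6 above these were Matn3, a matrilin of growth cartilage, and Col11a2, a chain of type XI collagen. Matn3 was at 61.2 CPM in forelimb against 27.7 CPM in hindlimb of Y440X, and at 415 CPM in WT forelimb against 266 CPM in WT hindlimb (0.89 ± 0.15, edgeR adjusted p = 0.000946). The summed level of the 21 genes was 17803 CPM in forelimb against 13785 CPM in hindlimb of Y440X GFP-positive cells, and 59571 CPM in WT forelimb against 40484 CPM in WT hindlimb.

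In GFP-negative cells forelimb was the higher library for 8 of the 21 genes in Y440X and for 20 of 21 in WT. None of the 21 passed the limb by genotype test given below. The summed levels were 633 CPM in forelimb against 740 CPM in hindlimb of Y440X, and 1001 CPM in WT forelimb against 907 CPM in WT hindlimb. Of the 21 genes 3 passed in GFP-negative cells, beside 7.98% of all genes. They were Acan, Lect1 and Comp, at 1.51 ± 0.22, 0.70 ± 0.16 and 0.83 ± 0.22. Their calls held in 8, 5 and 3 of 12 alternatives, in that order. Comp had only 31 to 146 reads in a GFP-negative library. Whether GFP-positive cells carried into this sort had a part in these values was not tested.

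Each fraction held 1 call among the 10 listed chondrogenic regulators. Of all genes 8.66% passed in the GFP-positive fraction and 7.98% in the GFP-negative one. The calls were Foxc2 in the former and Foxc1 in the latter. Both are forkhead factors, and Foxa3, the other forkhead factor listed, passed in neither fraction (0.38 ± 0.22 and 0.47 ± 0.94). These 1 of 10 shares rest on few genes and are not read as a result for forkhead factors. Foxc2 measured 0.61 ± 0.15 in GFP-positive cells (edgeR adjusted p = 0.00956), where it stood at 19.2 CPM in forelimb against 13.2 CPM in hindlimb of Y440X, and at 45.3 CPM in WT forelimb against 28.4 CPM in WT hindlimb. Foxc1 measured 0.77 ± 0.16 in GFP-negative cells (edgeR adjusted p = 0.00391), at 3.13 CPM in forelimb against 1.99 CPM in hindlimb of Y440X, and at 21.0 CPM in WT forelimb against 11.7 CPM in WT hindlimb. Neither differed between fractions beyond the threshold (limb by fraction, edgeR adjusted p = 0.664 and 0.152).

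Some members of the other lists passed in GFP-positive cells, where 8.66% of all genes did. In GFP-positive cells Prg4, the lubricin of joint surfaces, was at 5.94 CPM in forelimb against 11.8 CPM in hindlimb of Y440X, and at 5.75 CPM in WT forelimb against 7.53 CPM in WT hindlimb (-0.70 ± 0.20, edgeR adjusted p = 0.0274). Without the Y440X GFP-positive pair it measured -0.39 and did not pass. Gdf5, a growth factor of the joint interzone, measured -0.11 ± 0.14 there. The sarcomere genes Actn2 and Myh7 measured 0.79 ± 0.24 and 1.55 ± 0.52 in GFP-positive cells and were the 2 of 12 listed muscle genes to pass. Their levels there were low, with Actn2 no higher than the 2.30 CPM of WT forelimb and Myh7 no higher than the 0.854 CPM of WT forelimb. Without the WT GFP-positive pair Myh7 measured 0.95 and did not pass. Krt5 measured -0.61 ± 0.19 in GFP-positive cells, with 10.7 CPM in forelimb against 22.1 CPM in hindlimb of Y440X but 3.39 CPM in WT forelimb against 3.33 CPM in WT hindlimb. It measured 0.03 without the Y440X GFP-positive pair and -1.04 without the WT GFP-positive pair, and passed in neither. Of 17 listed endothelial genes the junction gene Cldn5 was higher (0.94 ± 0.30) and Esm1 lower (-0.90 ± 0.28). These shares, 2 of 12 and 2 of 17, rest on few genes and are not read against the 8.66% of all genes.

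In GFP-negative cells Meis1 was lower in forelimb, at 31.5 CPM in forelimb against 42.1 CPM in hindlimb of Y440X, and at 10.5 CPM in WT forelimb against 18.9 CPM in WT hindlimb (-0.63 ± 0.15, edgeR adjusted p = 0.00791). Its difference in GFP-positive cells was -0.14 ± 0.16, and the fractions did not differ beyond the threshold (edgeR adjusted p = 0.329). Dlx3, a homeobox gene, measured -0.67 ± 0.17 there and Panx3, a channel of hypertrophic chondrocytes, 1.17 ± 0.39, with no GFP-negative library above the 0.787 CPM of WT forelimb. The 12 listed neutrophil genes had a median of -0.43 over the 8 libraries, but none passed and their summed level was at most 26.5 CPM. Forelimb was the higher library for 0 of the 12 in Y440X GFP-negative cells and for 6 of 12 in WT GFP-negative cells. In GFP-positive cells the 12 genes summed to at most 0.356 CPM in a library. S100a9 had 0 reads in every GFP-positive library, so an order of the limbs is not given there. Of the heat shock genes Hspb1 passed in GFP-negative cells (0.58 ± 0.15), while Hspa1a and Hspa1b, near-identical copies whose separate counts are uncertain, had -0.35 ± 0.14 and -0.22 ± 0.14 there and did not pass.

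The fractions were then compared for genes passing in both. There were 9. They are 14.1% of the GFP-positive calls, beside 7.98% of all genes that passed in GFP-negative cells. They are also 15.3% of the GFP-negative calls, beside 8.66% of all genes that passed in GFP-positive cells. Of the 9, 7 had the same direction in both. These 7 were Acan, Clec11a, Comp, Ednrb, Lect1 and Trim47, all higher in forelimb, and Wnt7b, lower. Clec11a, a secreted growth factor for bone-forming cells, measured 0.65 ± 0.14 over the 8 libraries, and Trim47, a ubiquitin ligase, 0.61 ± 0.12. Clec11a kept its call in 2 of 12 alternatives in each fraction. Trim47 kept it in 8 of 12 in GFP-positive and in 2 of 12 in GFP-negative cells. The other 2, Erbb3 and Otogl, went in opposite directions.

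**Figure D4:**
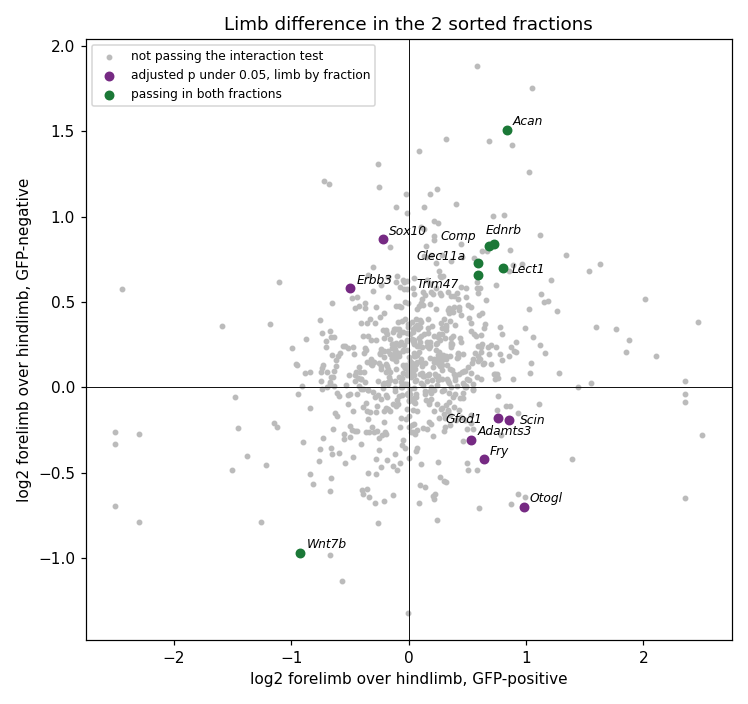
The 739 genes by log2 forelimb over hindlimb, GFP-positive cells on the horizontal and GFP-negative cells on the vertical axis, with 4 genes beyond 2.5 on either axis drawn at the edge. Purple marks the 7 genes whose limb difference differs between fractions and green the other 7 that passed in both, with Acan at 0.84 and 1.51 and Otogl at 0.98 and -0.70.

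The third comparison tested whether the limb difference itself differs between fractions. Of the 739 genes 7 passed (0.947%; edgeR limb by fraction interaction, GFP-positive minus GFP-negative), 5 with a more positive difference in GFP-positive cells (0.677%) and 2 with a more negative one (0.271%), and 12.0% had an unadjusted p under 0.05. Without the WT GFP-positive pair or the Y440X GFP-positive pair none passed (edgeR; 66 and 72 at an unadjusted p under 0.05). Without the WT GFP-negative pair 2 passed, and without the Y440X GFP-negative pair 1 did.

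Of the 7 listed Schwann and neural crest genes, Erbb3 and Sox10 passed this test, both with the more negative difference in GFP-positive cells. Erbb3, the neuregulin receptor of Schwann cell precursors, was at 7.98 CPM in forelimb against 12.4 CPM in hindlimb of Y440X GFP-positive cells, and at 33.2 CPM in WT forelimb against 43.0 CPM in WT hindlimb. GFP-negative cells held 20.2 CPM of it in forelimb against 11.4 CPM in hindlimb of Y440X, and 15.1 CPM in WT forelimb against 12.0 CPM in WT hindlimb. Forelimb was thus the lower library in both GFP-positive pairs and the higher one in both GFP-negative pairs, with differences of -0.50 ± 0.15 and 0.58 ± 0.15 and an interaction of -1.08 ± 0.21 (edgeR adjusted p = 0.00592). Without the Y440X GFP-negative pair its GFP-negative difference was 0.33 and did not pass.

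Sox10, the transcription factor of neural crest and glia, had the same order of the limbs in each pair, at lower levels. It was at 6.53 CPM in forelimb against 7.03 CPM in hindlimb of Y440X GFP-positive cells, and at 20.3 CPM in WT forelimb against 25.3 CPM in WT hindlimb. GFP-negative cells held 2.60 CPM of it in forelimb against 1.25 CPM in hindlimb of Y440X, and 5.15 CPM in WT forelimb against 3.09 CPM in WT hindlimb. It passed in GFP-negative cells (0.87 ± 0.20) and not in GFP-positive cells (-0.22 ± 0.17), with an interaction of -1.09 ± 0.26 (edgeR adjusted p = 0.0229).

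Ednrb, the endothelin receptor of neural crest, on chromosome 14 (103814615 to 103844508), passed as higher in forelimb in both fractions, and its interaction did not pass (-0.11 ± 0.25, edgeR adjusted p = 0.895). Its level in GFP-negative cells was 11.1 CPM in forelimb against 5.22 CPM in hindlimb of Y440X, and 40.6 CPM in WT forelimb against 26.3 CPM in WT hindlimb. Over the 8 libraries it measured 0.80 ± 0.13 (edgeR adjusted p = 0.00771). The summed level of the 7 listed Schwann and neural crest genes in GFP-negative cells was 37.3 CPM in forelimb against 20.3 CPM in hindlimb of Y440X, and 70.9 CPM in WT forelimb against 48.5 CPM in WT hindlimb. In GFP-positive cells it was 19.7 CPM in forelimb against 24.1 CPM in hindlimb of Y440X, and 68.0 CPM in WT forelimb against 77.9 CPM in WT hindlimb. Whether a different split of nerve-associated cells between the sorts had a part in this was not tested.

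The 5 genes with the more positive limb difference in GFP-positive cells were Otogl, Fry, Scin, Gfod1 and Adamts3. Otogl, which encodes an otogelin-like protein, was at 1.40 CPM in forelimb against 0.512 CPM in hindlimb of Y440X GFP-positive cells, and at 9.50 CPM in WT forelimb against 5.53 CPM in WT hindlimb. GFP-negative cells held 3.34 CPM of it in forelimb against 5.39 CPM in hindlimb of Y440X, and 2.91 CPM in WT forelimb against 4.77 CPM in WT hindlimb. The limbs were thus ordered oppositely in the 2 fractions in both genotypes (interaction 1.68 ± 0.31, edgeR adjusted p = 0.00513).

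Fry, the homolog of the fly gene furry, measured 0.64 ± 0.14 in the GFP-positive and -0.42 ± 0.15 in the GFP-negative fraction, of which the first passed (interaction 1.06 ± 0.20). Scin, the actin-severing protein adseverin, was at 31.1 CPM in forelimb against 15.8 CPM in hindlimb of Y440X GFP-positive cells, and at 147 CPM in WT forelimb against 88.3 CPM in WT hindlimb. Its GFP-negative pairs went opposite ways, with 9.63 CPM in Y440X forelimb against 8.25 CPM in Y440X hindlimb, and 5.30 CPM in WT forelimb against 8.24 CPM in WT hindlimb. The interaction was 1.04 ± 0.23, and without the WT GFP-negative pair it was 0.63 and did not pass. Gfod1 measured 0.94 ± 0.23 in the interaction. Adamts3, a protease that processes procollagen, measured 0.84 ± 0.20.

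The fourth comparison tested whether the limb difference differs between genotypes. None of the 739 genes passed in edgeR, and 20 had an unadjusted p under 0.05 (2.71%); DESeq2 and limma called 0 as well, with 4 and 23 at an unadjusted p under 0.05. The gene of the hypertrophy list with the smallest p was Ihh, the hedgehog ligand of prehypertrophic chondrocytes. It was at 20.7 CPM in forelimb against 35.8 CPM in hindlimb of Y440X GFP-positive cells, and at 120 CPM in WT forelimb against 99.1 CPM in WT hindlimb. The limb difference in Y440X minus that in WT was -1.01 ± 0.33 (edgeR adjusted p = 0.997, unadjusted p = 0.00553). For Sox9 the same value was -0.58 ± 0.27 (edgeR adjusted p = 0.997).

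The Y-linked genes bear only on the sex makeup of the forelimb and hindlimb pools. Whether both limbs came from the same fetuses is not stated, and limbs of the same fetuses would hold alike levels in any case. No conclusion on other makeup is drawn from these genes. The 2 Y-linked genes in hand, Ddx3y and Uty, are listed as lower in Y440X in both fractions, so the pools of the 2 genotypes differed in Y-linked RNA. Ddx3y, a helicase gene of the Y chromosome, was at 25.7 CPM in forelimb against 25.7 CPM in hindlimb of Y440X GFP-positive cells, and at 68.4 CPM in WT forelimb against 60.0 CPM in WT hindlimb. GFP-negative cells held 21.1 CPM of it in Y440X forelimb against 19.3 CPM in Y440X hindlimb, and 75.6 CPM in WT forelimb against 73.7 CPM in WT hindlimb. Its limb difference was 0.09 ± 0.11 and that of Uty -0.11 ± 0.13 (edgeR adjusted p = 0.672 and 0.664), and the sign of Ddx3y turned negative under TMM scaling and centring. The remaining lists gave no call over the 8 libraries: joint interzone, BMP and TGF-beta, hedgehog, FGF, retinoic acid, endothelium, muscle, fibroblast and dermis (Ebf2 passed in GFP-negative cells, 0.46 ± 0.14), heat shock, and hypoxia and glycolysis. Since 4.87% of all genes passed, the absence of a call in lists this small is not read as a result. The tendon and immediate early lists have 0 listed genes.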

How the data were processed

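Per the submitters' processing notes, the authors' tools include featureCounts and edgeR 3.36.0, with GRCm38 and mm10 as genome builds; roles are not stated, and no aligner is named there. Per the labels' protocols, libraries were stranded and made from mRNA of sorted cells. Headers give RPKM for each library, yet these deposited columns hold read counts: their values are whole in 100% of cells, and CPM computed from them return the authors' values whatever the gene length. Per the file headers the authors also give gene length in bases (other), a log2 fold change of genotype and log2 CPM, an F statistic (a score) and a p-value with its FDR. Listed genes only were in hand, so effective library sizes were found by a least-squares fit to the deposited log2 values of genes with at least 200 counts (largest residual of the log2 fold change 0.00141). There were 0 sample columns left unused.

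edgeR 4.0.16 in R 4.3.3 (limma 3.58.1, DESeq2 1.42.0) tested forelimb over hindlimb by quasi-likelihood with the 4 pairs as a block, leaving 3 residual degrees of freedom, and 2 with limb within fraction or an interaction. Tests were two-sided and adjusted by Benjamini-Hochberg over the 739 genes. Errors are Wald SE. The script was tested on simulated data. Pairs come from the labels' genotype and fraction. Libraries of a pair deviated together from their limb's mean (r of 0.90 to 0.97 across genes). The genes were chosen for genotype within a fraction, which alone makes such libraries deviate together, so this r does not test the pairing.

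The members and lists were chosen with earlier results of these data known. Genes were named by a rule: of those passing over 8 libraries, with 4 of 4 pairs in 1 direction and a mean of at least 1 CPM, the 15 largest differences per direction; Sox9, the limb identity and Y-linked genes; the 3 most abundant genes of each other list; the 5 smallest adjusted p per interaction; and the 2 most abundant genes. The others named were chosen after their values were seen. Not all genes the rule takes in are described. Alternatives were other scalings, DESeq2, limma on log2(CPM + 0.5), a filter of 10 mean counts, no block, additive terms, summed fractions, fractions alone and each pair left out. RefSeq coordinates (GRCm38.p6) matched 736 genes.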

Additional observations from a re-analysis of the deposited data

Results flagged for a closer look

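The groups of 4 pairs tested were those of 69 genes named by the rule and 29 named outside it, and chance sets about 1 in 20 apart in this way. Near that share, 6 genes had 1 pair far from the other 3 in log2 forelimb over hindlimb, and no result is drawn from them. Fgfr3, a receptor that restrains cartilage growth, measured -0.70 in Y440X GFP-negative cells, the lowest of its pairs. Col11a2 measured -0.48 in the same pair, also its lowest. Cxcl2 measured -0.18 in Y440X GFP-positive cells, its lowest, and Stab1, a scavenger receptor of vessels and macrophages, 0.23 in that pair, its highest. In WT GFP-positive cells F13a1, a clotting factor subunit made by macrophages, measured 0.002 and Ebf3, a transcription factor, -0.13, each the lowest of its pairs.

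In 7 genes the limb difference differed between the sorted fractions in the interaction test, in log2 of GFP-positive minus GFP-negative. They were Otogl at 1.68, Fry at 1.06, Scin at 1.04, Gfod1 at 0.94 and Adamts3 at 0.84, with Erbb3 at -1.08 and Sox10 at -1.09.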

How the results depend on the processing

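Of the 36 genes passing over 8 libraries, 19 remained with TMM scaling, and the count was 4 with limma, 0 without the replicate block, 0 with additive terms and 158 with the fractions of a pool summed, which leaves 1 residual degree of freedom. With one pair left out it ranged from 0 to 45. In GFP-positive cells 64 became 41 with TMM, 32 with DESeq2, 32 with limma and 0 without the replicate block, and 0 to 51 with a pair left out. In GFP-negative cells 59 became 25 with TMM, 38 centred, 19 with DESeq2, 24 with limma, 0 without the replicate block, 0 in the fraction alone, and 0 to 5 with a pair left out. The limb by fraction count of 7 became 3 with DESeq2, 1 with limma, 0 without the replicate block and 0 to 2 with a pair left out. The limb by genotype count was 0 in all alternatives. The causes were not tested, beyond fewer samples where a pair was left out. Of the values of single genes under other settings, 1012 kept direction and side of the threshold, 381 lost and 23 gained a call, and with a pair left out 346 kept them, 308 lost and 6 gained one.

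Sign changes over 8 libraries were of genes near 0 that did not pass. With TMM they were Ddx3y -0.002, Sox9 -0.063, Smpd3 -0.080, Gdf5 -0.073, Bmpr2 -0.070, Epcam -0.029, Erbb3 -0.054, Ebf1 -0.023 and Otogl -0.022. Centred, they were Ddx3y -0.018, Sox9 -0.078, Col9a1 -0.007, Smpd3 -0.099, Gdf5 -0.090, Fzd4 -0.010, Bmpr2 -0.086, Fgf17 -0.005, Epcam -0.043, Erbb3 -0.071, Ebf1 -0.038 and Otogl -0.042. With fractions summed they were Sox9 -0.072, Crabp1 0.016, Fgfr3 0.059, Sox6 -0.015, Smpd3 -0.199, Gdf5 -0.136, Cdh5 0.059, Sox10 -0.059 and Otogl -0.046. Without the replicate block they were Cyp26b1 0.067, Fgfr3 0.171, Ihh 0.068, Smpd3 -0.085, Gdf5 -0.079, Cdh5 0.014, Pecam1 -0.000, Erbb3 -0.044 and Sox10 -0.088. The rest were Panx3 0.107 with DESeq2, Panx3 0.081 with limma, and Ihh 0.018 and Panx3 0.250 with additive terms.

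With a pair left out, values crossed 0 for Sox9 (-0.104 to 0.130), Cyp26b1 (-0.119 to 0.080), Col9a1 (-0.055 to 0.188), Fgfr3 (-0.129 to 0.169), Ihh (-0.277 to 0.328), Smpd3 (-0.150 to 0.109), Gdf5 (-0.070 to 0.114), Fgf17 (-0.163 to 0.276), Epcam (-0.000 to 0.103), Cdh5 (-0.105 to 0.008), Erbb3 (-0.226 to 0.252), Ebf1 (-0.021 to 0.182), Fry (-0.089 to 0.340), Otogl (-0.227 to 0.381), Adamts3 (-0.061 to 0.305) and Panx3 (-0.188 to 0.217). In GFP-positive cells the calls of Krt5 (-1.042 to 0.026) and Wnt3 (-1.655 to 0.616) crossed 0 without the Y440X GFP-positive pair. Since 1 CPM is only 38.6 to 50.9 reads, differences of the lowest genes are limited by counting error.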

Other observations

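The limb difference was also summarised by the direction in which the authors list a gene between genotypes. Both comparisons use the same 8 libraries, so the values are given side by side with no test. Genes listed in opposite directions in the 2 fractions enter both groups below, since 597 are listed as lower only and 135 as higher only. Of the 604 genes listed as lower in Y440X in any table, 29 were higher and 1 was lower in forelimb over the 8 libraries. Their median log2 forelimb over hindlimb was 0.16. Of the 142 genes listed as higher in Y440X, 1 was higher (Lefty2, an antagonist of Nodal signalling) and 5 were lower, and the median was -0.07. With each pair centred on its median these counts were 19 and 3 for the genes listed as lower, and 0 and 8 for those listed as higher. In GFP-positive cells the medians of genes listed there as lower were 0.13 in the Y440X pair and 0.30 in the WT pair. In GFP-negative cells the medians of genes listed there as lower were 0.18 in the Y440X pair and 0.18 in the WT pair. Across the 739 genes the log2 limb differences of any 2 of the 4 pairs had a Pearson correlation between 0.03 and 0.31, where pairs of a genotype share pooled buds.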
